A study of Mus musculus with 2 samples.

Results

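The cells described here are intestinal T cells that carry Cd8a without Cd8b1, express a granzyme and have no transcript of the delta chain constant gene Trdc. They were chosen by measured transcript counts in 2 single-cell libraries of mouse small intestine, 1 from an FMTg mouse (Mdm2FM/- Cag-CreERTg) and 1 from a Tg mouse (Mdm2+/- Cag-CreERTg). Both mice were C57BL/6j, 60 days old, and were sampled 24 h after a single tamoxifen dose of 6 mg per 40 g. Both carry a CreER transgene under the ubiquitously active Cag promoter and lack 1 Mdm2 allele, and they differ in the remaining allele, named FM in FMTg and wild type in Tg. A cell was taken when it had at least 1000 unique molecular identifiers (UMIs, 1 per captured transcript), at least 300 genes, at most 25% mitochondrially encoded UMIs, at least 1 UMI of Cd3d, Cd3e or Cd3g, at least 1 of Cd8a, at least 1 of Gzma or Gzmb, none of Cd8b1, Trdc or the B-cell gene Cd79a, and fewer than 2 UMIs over the naive genes Lef1, Tcf7, S1pr1, Dapl1 and Ccr7. This selected 852 of 12652 barcodes, 337 of 6382 in FMTg and 515 of 6270 in Tg. Each genotype is 1 mouse and 1 library, so differences between FMTg and Tg have no replicate and no test. Intervals given with them are 95% intervals that cover counting error only.

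CD8 alpha-alpha T cells live within the epithelium of the small intestine, where the CD8 alpha homodimer binds the thymus leukaemia antigen on epithelial cells. Natural intraepithelial lymphocytes of this kind carry either an alpha-beta or a gamma-delta receptor, store granzymes, and use signalling adaptors shared with natural killer cells. Mdm2 is the ubiquitin ligase that restrains the transcription factor p53, and the p53 targets include Mdm2 itself, the cell cycle inhibitor Cdkn1a and the death effectors Bax, Bbc3 and Pmaip1.

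The libraries held 49805718 UMIs in FMTg and 54013005 in Tg. The mitochondrial limit alone was exceeded by 55.5% of all barcodes in FMTg and 50.7% in Tg. The selected cells had a median of 4848 UMIs (range 1041 to 62190) and 1813 genes in FMTg, and 5140 UMIs (1151 to 67340) and 1967 genes in Tg. Their median mitochondrial share was 13.1% in FMTg and 9.10% in Tg. Barcode sequences shared by both libraries numbered 14, of which 1 was a selected cell in FMTg and 1 in Tg and 0 were selected in both. Scored as likely doublets were 11 of the selected cells in FMTg and 20 in Tg, and the selection kept them.

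Some of these cells carried epithelial transcripts in quantity. Genes of an enterocyte list (14 genes, among them Fabp1, Apoa1 and Reg3b) made at least 2% of the UMIs in 8 selected cells in FMTg and 15 in Tg, and those few cells held 10.8% and 11.5% of all UMIs of the set. The summed enterocyte level was 13620 CPM (UMIs scaled to the total of the set) in FMTg and 22440 in Tg. It was 3167 CPM in FMTg and 5500 in Tg without those cells. The B cells of the same libraries, which do not make these proteins, had 16910 and 40060 CPM with no such cells left out. Per cell, the median enterocyte share of UMIs was 0.302% in FMTg and 0.566% in Tg in the selected cells, and 0.393% and 0.793% in the B cells. The epithelial marker Epcam had at least 1 UMI in 204 of 337 selected cells in FMTg and in 356 of 515 in Tg. In the Cd8b1-positive cytotoxic T cells described below it had a UMI in 41.7% in FMTg and 46.6% in Tg. Their median enterocyte shares were 0.308% and 0.620%. Epcam detection thus did not follow the enterocyte share between these sets, and the source of the Epcam UMIs was not tested. Because of the enterocyte UMIs, some results below are given both with all selected cells and without the cells of at least 2% enterocyte UMIs. Where 1 value is given it is over all selected cells, and it may move without those cells. Myeloid transcripts were a further difference, with 182 CPM over 11 genes in FMTg and 627 in Tg. Of the 448 S100a8 UMIs in Tg, 360 lay in 1 cell, and FMTg had 3.

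The markers of a cytotoxic CD8 alpha-alpha T cell were all present. Gzma and Gzmb, the granule proteases used in the selection, stood at 35940 and 2700 CPM in FMTg and at 44060 and 5187 CPM in Tg. Cd8a, also used, had 1272 CPM in FMTg and 1424 in Tg. Il2rb, the receptor chain shared by interleukins 2 and 15, was not used and had 546 CPM in FMTg and 668 in Tg, against 2.13 and 4.89 CPM in B cells. Klrd1, the CD94 killer receptor chain, had 1040 CPM in FMTg and 933 in Tg and was detected in 324 of 337 and 490 of 515 cells. The chemokine Ccl5, the tissue-residence integrin chains Itgae and Itga1 and the regulator Runx3 were also high. Itgae, the alpha chain of the E-cadherin receptor, had 554 CPM in FMTg and 567 in Tg, and Itga1, a collagen receptor chain, had 563 and 535.

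The receptor genes did not mark these cells as purely alpha-beta. Trac, Trbc1 or Trbc2, the alpha-beta constant genes, had a UMI in 99.1% of the selected cells in FMTg and 98.3% in Tg. A gamma constant gene (Tcrg-C1, Tcrg-C2 or Tcrg-C4) had a UMI in 97.0% in FMTg and 93.6% in Tg, so that 325 of 337 and 478 of 515 cells carried both kinds. The same held in the other cytotoxic T cells. Both kinds were carried by 97.2% of the Trdc-positive cells in FMTg and 96.4% in Tg, and by 91.7% and 94.9% of the Cd8b1-positive cells. Tcrg-C1 separated the sets more than the other gamma constants. It was seen in 38.3% of the selected cells in FMTg and 39.4% in Tg, in 87.3% and 90.2% of the Trdc-positive cytotoxic T cells, and in 6.67% and 11.0% of the Cd8b1-positive cytotoxic T cells. Near the limits of the selection stood 24 Cd8a-positive, Cd8b1-negative cells in FMTg and 25 in Tg with exactly 1 Trdc UMI (outside), and 13 and 16 selected cells with exactly 1 Cd8a UMI (inside). Cells carrying alpha-beta constants and no Tcrg-C1 numbered 206 in FMTg and 306 in Tg. Only 9 cells in FMTg and 28 in Tg had alpha-beta constants and no gamma constant at all.

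Markers of CD4 T cells, of natural killer and innate lymphoid cells and of B cells were scarce, and those of gamma-delta T cells were not. Over 4 CD4 T-cell genes the selected cells held 5 UMIs in FMTg and 17 in Tg, with Foxp3 at 0 in both. Natural killer and innate lymphoid genes (8 genes) summed to 56.1 CPM in FMTg and 60.7 in Tg, mostly from Gata3 and Kit, and Ncr1, the defining natural killer receptor NKp46, was at 0 in both. The B-cell list summed to 546 CPM in FMTg and 556 in Tg, against 65090 and 52070 CPM in the B cells. Cells with a Cd79a UMI had been barred by the selection. The gamma-delta T-cell list summed to 1351 CPM in FMTg and 1048 in Tg, against 3313 and 2731 CPM in the Trdc-positive cytotoxic T cells.

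**Figure D1:**
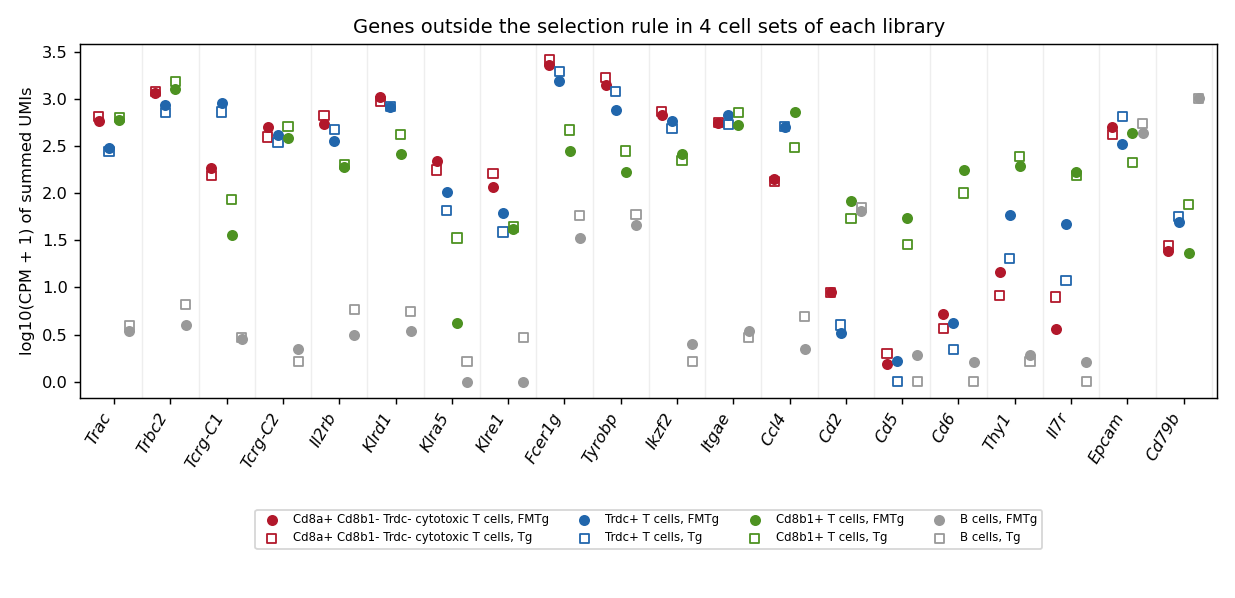
Level of genes outside the selection rule, as log10(CPM + 1) of the summed UMIs, in the selected cells (red), Trdc-positive T cells (blue), Cd8b1-positive T cells (green) and B cells (grey), with filled circles for FMTg and open squares for Tg. Tcrg-C1 is highest in the Trdc-positive cells and lowest among T cells in the Cd8b1-positive ones, with the selected cells between, and Fcer1g and Tyrobp are higher in the selected cells than in the Cd8b1-positive ones.

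The share of these cells among CD3-positive barcodes was lower in the FMTg mouse. They made 22.1% of 1525 CD3-positive barcodes in FMTg (exact binomial interval 20.04 to 24.3%) and 33.6% of 1533 in Tg (31.2 to 36.0%). Trdc-positive cytotoxic cells made 39.8% in FMTg (37.3 to 42.3%) and 34.1% in Tg (31.7 to 36.6%). Cd8b1-positive cytotoxic cells made 3.93% in FMTg (3.02 to 5.04%) and 7.70% in Tg (6.41 to 9.15%), and naive-like T cells 17.97% (16.1 to 19.99%) in FMTg and 8.28% (6.95 to 9.78%) in Tg. The intervals of the FMTg and Tg libraries do not overlap for any of these 4 sets, with the Trdc-positive and naive-like cells at the higher share in FMTg and the selected and Cd8b1-positive cells at the lower one. Selected cells without an Epcam UMI, 133 in FMTg and 159 in Tg, made 8.72% and 10.4% of all CD3-positive barcodes. The CD3-positive total was not filtered for Epcam, so these are not shares among Epcam-negative T cells. An Epcam UMI was held by 60.5% of the selected cells in FMTg and 69.1% in Tg. The mitochondrial limit bears on the share: a further 21 cells in FMTg and 30 in Tg met every other criterion at 25 to 30% mitochondrial UMIs, and 64 and 82 did so above that. The shares are of captured barcodes, in which genotype, mouse and library cannot be told apart.

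**Figure D2:**
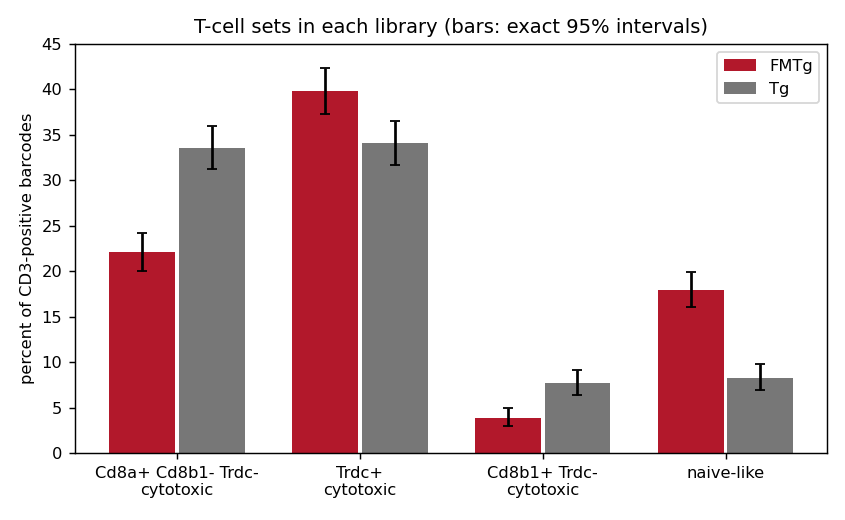
Percent of CD3-positive barcodes in each T-cell set, FMTg (red) and Tg (grey), with exact 95% binomial intervals for counting error. The selected cells make 22.1% in FMTg and 33.6% in Tg, and the naive-like cells 17.97% and 8.28%.

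Gene by gene, 9784 genes had at least 20 UMIs over both libraries of the selected cells. Of these 7.04% were at least 1.5-fold higher in FMTg and 9.36% at least 1.5-fold lower, and the median log2 ratio, FMTg over Tg, was -0.05. Without the cells of at least 2% enterocyte UMIs, 5.73% of 9283 genes were higher and 10.1% lower, with a median of -0.09. In the Trdc-positive cells of the same libraries the shares were 7.5% higher and 15.3% lower of 10294 genes, with a median of -0.02. These are the shares against which the counts of each gene group are read.

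Genes activated by p53 stood higher in the selected cells of the FMTg mouse. Of 38 measured p53 targets, out of 43 listed, 18 were at least 1.5-fold higher in FMTg and 1 was lower, 33 had a ratio above 0, and their median log2 ratio was 0.55. Without the cells of at least 2% enterocyte UMIs the median was 0.71, with 19 of 35 higher and 1 lower. In the Trdc-positive cells, with none left out for enterocyte UMIs, the median was 0.32, with 14 of 38 higher and 5 lower. The difference between the cell sets was not tested.

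Cdkn1a, the p21 inhibitor of cyclin-dependent kinases, had 518 UMIs (274 CPM) in FMTg and 334 (110 CPM) in Tg, a log2 ratio of 1.31 (interval 1.11 to 1.52). A few cells carried much of this, with up to 111 UMIs in 1 cell in FMTg and 77 in Tg. Without the cells of at least 2% enterocyte UMIs it had 290 UMIs in FMTg and 108 in Tg, and the log2 ratio was 2.09. A Cdkn1a UMI was found in 32.9% of the selected cells in FMTg and 17.9% in Tg, against 18.6% and 20.1% of B cells. With each cell thinned to 1000 UMIs, these shares were 12.8% in FMTg and 5.05% in Tg, against 5.42% and 6.88% of B cells. The share in Tg therefore lay at the level seen in B cells, and the share in FMTg above it. In the Trdc-positive cells Cdkn1a had 132 CPM in FMTg and 122 in Tg. Those values keep the cells of at least 2% enterocyte UMIs, which held 5.02% of the UMIs of that set in FMTg and 20.7% in Tg. They therefore cannot be set against the log2 ratio of 2.09.

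Mdm2 itself had 248 UMIs (131 CPM) in FMTg and 266 (87.8 CPM) in Tg, a log2 ratio of 0.58 (0.32 to 0.83), just under 1.5-fold. The counts do not separate the FM allele from the wild-type allele. Trp53, the gene of p53, had 74.6 CPM in FMTg and 70.6 in Tg, a log2 ratio of 0.08 (-0.24 to 0.39). Ccng1, the p53-induced cyclin G1, had 404 UMIs in FMTg and 311 in Tg, with a log2 ratio of 1.06 (0.84 to 1.28). Rps27l, a p53-induced relative of a ribosomal protein, had 917 UMIs in FMTg and 830 in Tg, with a log2 ratio of 0.82 (0.69 to 0.96). Bax, the pore-forming death effector, had 598 UMIs in FMTg and 630 in Tg, with a log2 ratio of 0.61 (0.44 to 0.77). These 3 were detected broadly, in 149, 268 and 223 of 337 cells in FMTg, and in 177, 320 and 293 of 515 in Tg.

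Several of the highest ratios of the list belonged to genes of low counts. Those of Trp53inp1, Pmaip1 and Bbc3, also given here, did not exceed that of Cdkn1a. Psrc1, a microtubule-binding protein, had 56 UMIs in 32 cells in FMTg and 11 UMIs in 10 cells in Tg, a log2 ratio of 3.03 (2.08 to 4.11). Phlda3, which blocks Akt at the membrane, had 102 UMIs in FMTg and 51 in Tg, with a log2 ratio of 1.68 (1.18 to 2.19). Sesn2, a stress-induced regulator of mTORC1, had 44 UMIs in FMTg and 27 in Tg (log2 1.39, 0.66 to 2.13). Trp53inp1, a p53-induced nuclear protein, had 233 UMIs in FMTg and 163 in Tg (log2 1.20, 0.90 to 1.49). The BH3-only death genes Bbc3, with 54 UMIs in FMTg and 46 in Tg, and Pmaip1, with 50 and 38, had log2 ratios of 0.91 (0.32 to 1.51) and 1.08 (0.44 to 1.72). Targets that did not pass 1.5-fold included Btg1, with a log2 ratio of 0.09, Btg2 with 0.06 and Sesn1 with -0.16. The single target lower than 1.5-fold was Ddb2, with 11 UMIs in FMTg and 33 in Tg, whose interval (-2.04 to 0.12) includes 0.

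**Figure D3:**
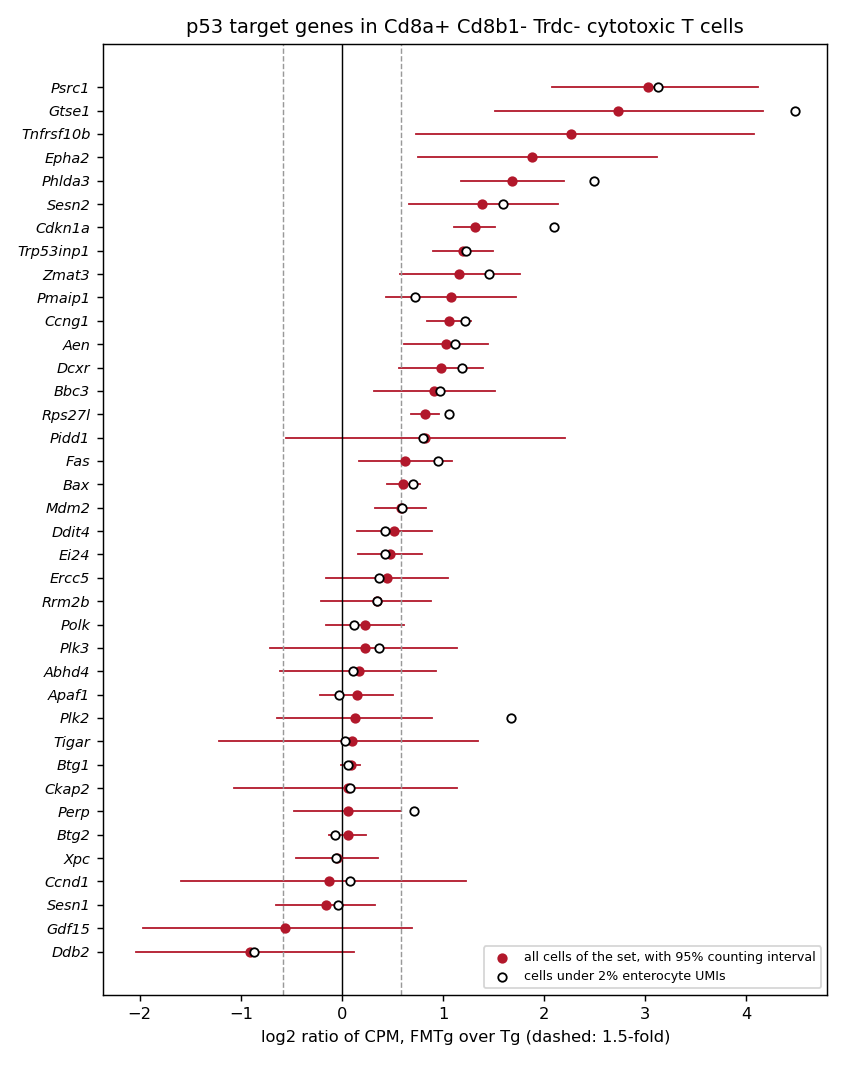
Log2 ratio of CPM, FMTg over Tg, for each p53 target with at least 20 UMIs in the selected cells, ordered by ratio, with 95% counting intervals (red) and the value without cells of at least 2% enterocyte UMIs (open). Of 38 genes 18 lie beyond the 1.5-fold line on the right and 1 beyond it on the left, and the open points of Cdkn1a and Phlda3 lie farther right than the red ones.

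Promoter windows are shown for 4 of these genes whose window held a match to the p53 consensus, including Mdm2, which did not pass 1.5-fold. Each runs from 250 bases before to 50 after the transcription start (RefSeq, GRCm38.p6), 5′ to 3′ on the gene's strand, with matches to the p53 decamer consensus, searched on both strands, in capitals.
Cdkn1a (chr17:29090729-29091028, plus strand): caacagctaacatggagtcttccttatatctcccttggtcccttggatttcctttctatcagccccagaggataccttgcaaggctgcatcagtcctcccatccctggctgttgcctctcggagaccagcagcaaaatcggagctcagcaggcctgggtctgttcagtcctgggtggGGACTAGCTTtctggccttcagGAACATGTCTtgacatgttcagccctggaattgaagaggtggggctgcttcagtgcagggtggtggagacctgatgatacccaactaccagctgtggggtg
Ccng1 (chr11:40755237-40755536, minus strand): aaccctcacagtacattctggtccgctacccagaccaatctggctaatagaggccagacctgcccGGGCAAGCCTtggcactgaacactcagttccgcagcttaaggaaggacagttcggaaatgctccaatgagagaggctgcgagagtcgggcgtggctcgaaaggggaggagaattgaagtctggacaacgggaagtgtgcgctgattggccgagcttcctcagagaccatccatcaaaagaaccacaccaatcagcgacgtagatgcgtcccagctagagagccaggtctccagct
Mdm2 (chr10:117710709-117711008, minus strand): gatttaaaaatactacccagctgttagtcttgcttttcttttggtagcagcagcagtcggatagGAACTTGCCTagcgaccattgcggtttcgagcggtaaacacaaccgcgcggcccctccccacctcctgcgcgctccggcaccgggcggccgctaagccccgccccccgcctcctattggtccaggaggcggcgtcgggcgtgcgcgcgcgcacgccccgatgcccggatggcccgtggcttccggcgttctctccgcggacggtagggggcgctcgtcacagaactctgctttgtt
Rps27l (chr9:66946163-66946462, plus strand): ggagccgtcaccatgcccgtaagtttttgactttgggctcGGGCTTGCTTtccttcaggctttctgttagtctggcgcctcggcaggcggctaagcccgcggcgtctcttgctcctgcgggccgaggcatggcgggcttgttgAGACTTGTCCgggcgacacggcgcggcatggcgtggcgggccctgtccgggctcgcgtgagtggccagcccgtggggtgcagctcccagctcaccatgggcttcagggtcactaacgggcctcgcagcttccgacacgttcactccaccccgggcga
The decamer occurred in 8.36% of all 32851 windows. By gene, at least 1 window held it for 9.55% of all 27025 genes and for 13 of 33 listed targets with a window. Cdkn1a was the single listed target whose window held a pair of decamers within the spacing searched, a pattern in 0.0731% of all windows. The pair was found in 0 of 12 heat shock genes and in 1 of 31 interferon genes, Ifitm2, and the single decamer in 1 of 12 and 7 of 31. Sesn1, which did not pass 1.5-fold, was among the 13 targets with a decamer. Psrc1, Phlda3 and Sesn2, which did pass it, were not among the 13. A link between the decamer and the ratio was not tested. A match describes letters in this window and is no measure of binding.

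Heat shock chaperones stood lower in the FMTg cells. Of 14 measured, 9 were at least 1.5-fold lower in FMTg and 0 higher, with a median log2 ratio of -0.75. Hspa1b, an inducible Hsp70, had 1 UMI in 1 cell in FMTg and 249 UMIs in 109 cells in Tg, and Hspa1a, its twin, had 4 UMIs in FMTg and 138 in Tg. The 2 genes are near-identical copies, so reads may be split between them. Hsph1, an Hsp110 cochaperone, had 108 UMIs in FMTg and 460 in Tg (log2 -1.41, -1.73 to -1.10). Dnaja1, an Hsp40, had 800 UMIs in FMTg and 2585 in Tg (log2 -1.01, -1.13 to -0.90), and Hsp90aa1, the inducible Hsp90, had 603 and 2043 (log2 -1.08, -1.21 to -0.95). The endoplasmic reticulum chaperone Hspa5 was not past the fold, with 406 CPM in FMTg and 450 in Tg. The Trdc-positive cells had a median of -0.81 for the same list, with 8 of 14 lower, and B cells had Hspa1b at 7.61 CPM in FMTg and 41.1 in Tg. The lower level of these genes in FMTg was thus seen in other cell sets of the same libraries.

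Heat shock elements, the sites at which heat shock factor binds, were searched as alternating inverted GAA units spaced by 2 bases, on both strands, and 2 windows that hold one are shown because their genes differed in these cells, Hspe1 (437 UMIs in FMTg, 924 in Tg) by less than 1.5-fold and Hsph1 by more.
Hspe1 (chr1:55087898-55088197, plus strand): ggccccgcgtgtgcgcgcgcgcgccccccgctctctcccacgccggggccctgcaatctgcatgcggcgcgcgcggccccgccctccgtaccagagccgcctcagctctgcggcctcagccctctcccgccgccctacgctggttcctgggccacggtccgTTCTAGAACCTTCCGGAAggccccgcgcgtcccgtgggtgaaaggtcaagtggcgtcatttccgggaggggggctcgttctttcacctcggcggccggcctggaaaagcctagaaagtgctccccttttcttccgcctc
Hsph1 (chr5:149636287-149636586, minus strand): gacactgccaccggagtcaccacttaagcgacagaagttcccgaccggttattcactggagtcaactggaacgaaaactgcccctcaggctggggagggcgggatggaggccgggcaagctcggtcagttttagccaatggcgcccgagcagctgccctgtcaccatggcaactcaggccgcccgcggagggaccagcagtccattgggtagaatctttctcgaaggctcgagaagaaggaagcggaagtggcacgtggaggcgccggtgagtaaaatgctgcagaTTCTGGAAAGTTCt
The capitals mark the element. It was found in 0.603% of all windows. By gene, at least 1 window held it for 0.662% of all 27025 genes and for 4 of 12 heat shock genes with a window. The genes not shown were Hspd1, with 112 CPM in FMTg and 188 in Tg, and Dnajb6, with 186 in FMTg and 158 in Tg. Dnajb6 thus had the opposite direction to Hspe1 and Hsph1. A link between the element and the ratio was not tested.

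Cytotoxic granule genes were level or lower in FMTg. Of 17 measured, 0 were at least 1.5-fold higher in FMTg and 4 lower, with a median log2 ratio of -0.24. The 17 include Gzma and Gzmb, which entered the choice of the cells, and Gzmb is among the 4 lower. These list values are therefore a description only. Gzmb, which entered the choice of the cells and is only described here, had 5105 UMIs in FMTg and 15720 in Tg, with a log2 ratio of -0.94; its median per cell was 12 UMIs in FMTg and 28 in Tg. Gzma had a log2 ratio of -0.29 and a median of 196 UMIs per cell in FMTg and 248 in Tg. Prf1, the pore-forming perforin, had 80 UMIs in FMTg and 195 in Tg (log2 -0.60, -0.999 to -0.22). Nkg7, which acts in granule release, had 2225 CPM in FMTg and 2521 in Tg, a log2 ratio of -0.18, and the granule proteoglycan Srgn had -0.13. Fasl, the ligand of the death receptor Fas, was at 124 CPM in each library.

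Killer-cell receptors moved in both directions. Of 22 measured receptors and adaptors, 5 were at least 1.5-fold higher in FMTg and 1 lower, with a median log2 ratio of 0.05. Klrb1a, an NKR-P1 receptor, had 139 UMIs in 100 cells in FMTg and 0 UMIs in Tg, at least 74.3-fold higher in FMTg when the 0 is set at 3 counts over the library's set. In the whole libraries it had 335 UMIs in FMTg and 15 in Tg. Klra3, a Ly49 receptor, had 37 UMIs in FMTg and 0 in Tg, at least 19.8-fold higher. Klrk1, the NKG2D receptor, had 45 UMIs in FMTg and 13 in Tg (log2 2.47, 1.56 to 3.49). Klra6 had 32 UMIs in FMTg and 141 in Tg (log2 -1.46, -2.06 to -0.90), and Klra5, the most counted Ly49 here, had 413 and 531 (log2 0.32). The Klra and Klrb1 genes are close copies of each other, and counting may move reads between them. The adaptors Fcer1g and Tyrobp, which carry the signal of such receptors, had log2 ratios of -0.16 and -0.28 with 2307 and 1398 CPM in FMTg and 2585 and 1703 in Tg.

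The cytokine receptor and residence lists leaned lower in FMTg, with 6 of 21 and 5 of 23 genes at a ratio above 0. Cytokines were level as a list, with 5 of 10 above 0. The cytokine receptor and Jak-Stat list had a median log2 ratio of -0.18, with 2 of 21 higher and 4 lower, and Jak3, the kinase of the common gamma chain receptors, had 60 UMIs in FMTg and 174 in Tg (log2 -0.86, -1.30 to -0.42). The homing and residence list had a median of -0.27, with 2 of 23 higher and 3 lower. Itga4, an integrin chain of the alpha4 integrins, had 86 UMIs in FMTg and 74 in Tg (log2 0.90, 0.43 to 1.37), and Rgs1, a brake on chemokine signalling, had 886 CPM in FMTg and 1146 in Tg. Cytokines had a median of 0.01, with 1 of 10 higher and 2 lower. Xcl1, a chemokine of cytotoxic cells that attracts dendritic cells, had 299 UMIs in 74 cells in FMTg and 144 in 58 cells in Tg (log2 1.73, 1.44 to 2.03), with up to 58 UMIs in 1 cell in FMTg, and in the Trdc-positive cells 65.8 and 61.6 CPM. Ccl5 had 22050 CPM in FMTg and 23500 in Tg.

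Interferon-response genes had no common direction over all selected cells, with 18 of 37 at a ratio above 0. Of 37 measured, 6 were at least 1.5-fold higher in FMTg and 5 lower, with a median log2 ratio of -0.01. Ifit1, an inducible antiviral RNA-binding protein, had 285 UMIs in FMTg, 148 of them in 1 cell, and 81 in Tg, with a log2 ratio of 2.50 over all cells and 0.72 without the cells of at least 2% enterocyte UMIs. Without those cells the list leaned lower in FMTg, with a median of -0.19, 1 of 34 higher and 7 lower, and 11 of 34 at a ratio above 0. Zbp1, a nucleic acid sensor, had 69 UMIs in FMTg and 208 in Tg (log2 -0.91, -1.33 to -0.51; -1.13 without those cells), and Igtp, an immunity-related GTPase, had 62 and 191 (log2 -0.94, -1.38 to -0.52). The MHC class I list had a median of -0.17, with 1 of 22 higher and 1 lower. H2-T3, which encodes the thymus leukaemia antigen bound by the CD8 alpha homodimer and is made by the epithelium, had 102 UMIs in FMTg and 328 in Tg (log2 -1.005). Without the cells of at least 2% enterocyte UMIs the lowest log2 ratio of that list was -0.69.

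Among transcription factors of cytotoxic lymphocytes the median log2 ratio was -0.04, with 3 of 27 higher and 5 lower, and -0.23 without the cells of at least 2% enterocyte UMIs, with 2 of 26 higher and 6 lower. Batf, an AP-1 partner active in effector T cells, had 37 UMIs in FMTg and 136 in Tg (log2 -1.20, -1.76 to -0.66), and Prdm1, the Blimp-1 repressor of resident T cells, had 104 and 98 (log2 0.77, 0.35 to 1.18). Runx3, Id2 and Ets1 lay within 0.14 of 0. The immediate early list had a median of -0.16, with 2 of 20 higher and 3 lower, and -0.40 without those cells, with 1 of 20 higher and 6 lower. Junb stood at 363 UMIs in FMTg and 1041 in Tg (log2 -0.84, -1.02 to -0.67) and Jund at 1213 and 3218 (log2 -0.73). The inhibitory and costimulatory receptors had a median of 0.01, with 1 of 8 higher and 1 lower. Lag3, an inhibitory receptor, had 205 CPM in FMTg and 283 in Tg.

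All 13 mitochondrially encoded genes had ratios above 0, with a median log2 ratio of 0.39 and mt-Nd3, a complex I subunit, at 7925 UMIs in FMTg and 6115 in Tg (log2 1.05). Mitochondrial share also entered the selection as a limit. Nuclear oxidative phosphorylation genes had a median of -0.14, with 3 of 86 higher and 2 lower, and -0.00093 without the cells of at least 2% enterocyte UMIs. The median was 0.11 for cytosolic ribosomal protein genes, with 6 of 80 higher and 0 lower, a share near that over all genes, and Rps29 stood at 11559 UMIs in FMTg and 10263 in Tg (log2 0.85). Glycolysis genes had a median of -0.33, with 0 of 14 higher and 2 lower. Of 22 S-phase genes 0 were higher and 2 lower, and their median log2 ratio was 0.00. Genes of G2 and M phase were level or lower in FMTg, with a median of -0.21 and 0 of 14 higher and 4 lower, while in the Trdc-positive cells their median was 0.24, with 4 of 16 higher and 0 lower; the difference between the cell sets was not tested. Top2a, the topoisomerase of dividing cells, had 46 UMIs in 32 cells in FMTg and 108 in 41 cells in Tg. The Bcl2 family and caspases outside the p53 list had a median of -0.01, with 5 of 27 higher and 1 lower. Without the cells of at least 2% enterocyte UMIs the median was 0.02, with 3 of 26 higher and 1 lower. Bcl2, the survival factor, had 852 CPM in FMTg and 880 in Tg. T-cell receptor and coreceptor genes had a median of -0.01, with 1 of 20 higher and 0 lower. That list also holds genes of the selection rule.

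**Figure D4:**
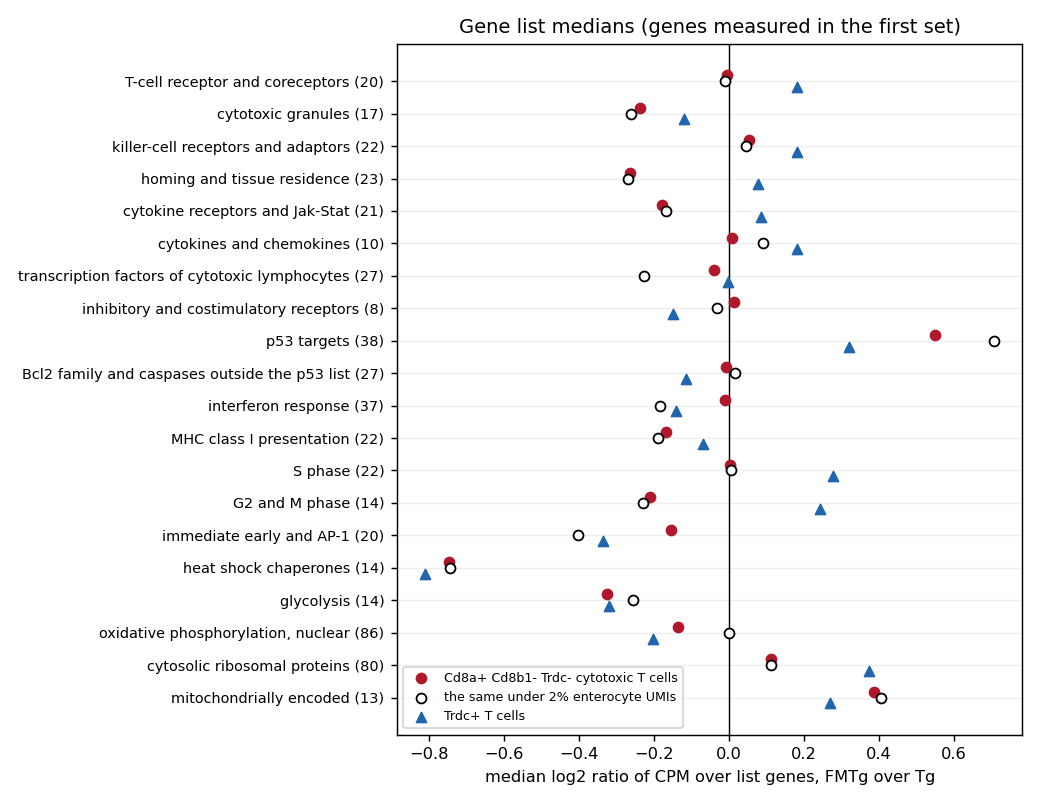
Median log2 ratio of CPM, FMTg over Tg, for each gene list in the selected cells (filled red), the same cells under 2% enterocyte UMIs (open) and all Trdc-positive T cells (blue triangles), with the number of genes measured in the first set after each name. The p53 targets stand at 0.55, 0.71 and 0.32, and the heat shock chaperones at -0.75, -0.74 and -0.81.

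The selected cells were then compared with Trdc-positive and Cd8b1-positive cytotoxic T cells, which were present in both mice. Both sets met the same depth, CD3, granzyme, naive and Cd79a limits. The Cd8b1-positive set had UMIs of Cd8a and Cd8b1 and none of Trdc. The Trdc-positive set had no condition on Cd8a or Cd8b1, and its cells held 0 to 25 Cd8a UMIs in FMTg and 0 to 22 in Tg. It thus differs from the selected cells in more than Trdc. UMIs were summed per set and library, giving 6 sums, and edgeR's quasi-likelihood test was fitted with the library as a block, with Benjamini-Hochberg adjustment over 11247 genes. Genes of the selection rule are not reported. Here the replicates are the 2 mice, which differ in genotype, and a small number of residual degrees of freedom carries each test. A gene was called at an adjusted p under 0.05.

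Against the Trdc-positive cells (607 in FMTg, 523 in Tg), 3 genes were higher in the selected cells (0.0267% of those tested) and 16 lower (0.142%), 18 of the 19 in the same direction in both mice. An unadjusted p under 0.05 was reached by 350 genes. Trac, the alpha chain constant gene, was higher, with 590 and 656 CPM in the selected cells of FMTg and Tg and 303 and 274 CPM in the Trdc-positive cells (log2 1.12, SE 0.13, adjusted p = 0.011). Tcrg-C1 was lower, at 186 and 153 CPM against 911 and 727 (log2 -2.27, SE 0.23, adjusted p = 0.0058). Klra6, a Ly49 receptor, was higher at 16.9 and 46.5 CPM against 3.24 and 3.30 (log2 3.20, SE 0.37, adjusted p = 0.011), and Dnm3, a dynamin, was higher at 80.9 and 80.2 CPM against 26.9 and 37.6. Lower in the selected cells were Ccl4, a chemokine of activated cytotoxic cells, at 142 and 132 CPM against 497 and 508 (log2 -1.87, SE 0.26, adjusted p = 0.023), Themis, a regulator of receptor signal strength, at 15.9 and 12.2 CPM against 79.4 and 49.9, and Cd247, the CD3 zeta chain, at 28.0 and 39.3 CPM against 95.9 and 87.4. Epithelial genes were also among those lower, Agr2 and Spink4 of goblet cells. Spink4 had 17.98 and 33.7 CPM against 102 and 321. In Tg, cells of at least 2% enterocyte UMIs held 20.7% of the UMIs of the Trdc-positive set and 11.5% of those of the selected set. Without such cells in any set, 63 genes were higher and 113 lower, and without the library block 0 were called in either direction. Tested for the p53 list, 0 of 40 genes were called.

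Against the Cd8b1-positive cells (60 in FMTg, 118 in Tg), 78 genes were higher in the selected cells (0.694%) and 59 lower (0.525%), 136 of the 137 in the same direction in both mice, and 1160 genes reached an unadjusted p under 0.05. Of 25 killer-cell receptors and adaptors tested, 6 were higher and 2 lower. Fcer1g, an immunoreceptor adaptor of natural killer cells, had 2307 and 2585 CPM in the selected cells of FMTg and Tg and 279 and 467 in the Cd8b1-positive cells (log2 2.74, SE 0.15, adjusted p = 3.1e-05). Tyrobp, the DAP12 adaptor, had 1398 and 1703 CPM against 165 and 279 (log2 2.84, SE 0.16). Klrd1 had 1040 and 933 CPM against 260 and 416 (log2 1.55, SE 0.19), and Il2rb 546 and 668 against 190 and 200 (log2 1.65, SE 0.15). Klra5 had 218 and 175 CPM against 3.17 and 32.5, and Klrb1 had 15.3 and 20.1 CPM against 0 in both mice. Higher too were Ikzf2, the Helios transcription factor, at 671 and 729 CPM against 257 and 221, Bcl2 at 852 and 880 against 254 and 378, Lag3 at 205 and 283 against 63.4 and 122, and Entpd1, the ectoenzyme CD39, at 51.8 and 60.7 against 15.9 and 15.4.

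Lower in the selected cells were genes of conventional T cells. Of 20 receptor and coreceptor genes tested, 0 were higher and 7 lower. Cd28, the costimulatory receptor, had 0 UMIs in both mice against 22.2 and 18.8 CPM in the Cd8b1-positive cells. Thy1 had 13.8 and 7.26 CPM against 193 and 246 (log2 -4.53, SE 0.42, adjusted p = 0.00068). Cd6, a surface scavenger receptor of T cells, had 4.23 and 2.64 CPM against 174 and 99.3 (log2 -5.26, SE 0.32), Cd5, a negative regulator of receptor signals, 0.529 and 0.990 against 53.9 and 27.4, and Cd2, an adhesion receptor, 7.93 and 7.92 against 82.4 and 53.1. Il7r, the interleukin 7 receptor of memory T cells, had 2.64 and 6.93 CPM against 168 and 152. Ms4a4b, a membrane protein of T cells, had 7.93 and 5.61 CPM against 450 and 395 (log2 -5.97, SE 0.21), and Gzmk, a granzyme of memory T cells, 19.0 and 16.8 against 143 and 211. The adaptor Lat stood at 91.0 and 66.7 CPM against 371 and 428. Of 41 interferon-response genes, 0 were higher and 4 lower. The chemokine receptors Ccr9, which homes T cells to the small intestine, and Cxcr3 were lower as well, Ccr9 at 127 and 140 CPM against 295 and 385. For the p53 list 0 of 40 were called.

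**Figure D5:**
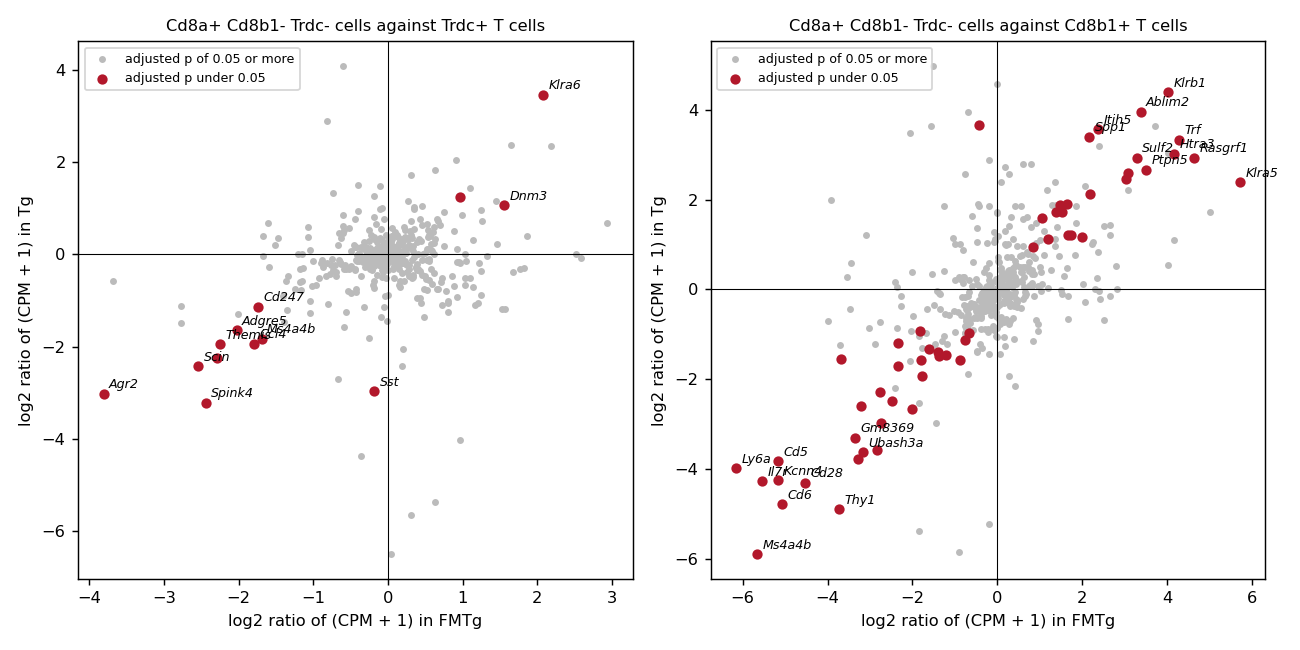
Log2 ratio of (CPM + 1) in FMTg (x axis) and in Tg (y axis) of the selected cells against Trdc-positive T cells (left) and Cd8b1-positive T cells (right), for genes of the lists used here and genes ranked highest or lowest, with genes of adjusted p under 0.05 in red. Of the 137 genes called on the right, 136 have the same direction in both mice, and Sst on the left lies near 0 in FMTg and at -2.96 in Tg.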

How the data were processed

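Single-cell suspensions of fresh small intestine were run on the 10x Chromium 3′ platform, 1 library per mouse, per the labels' protocols. The authors deposited raw UMI counts per gene and barcode. Per the submitters' processing notes, CASAVA 1.8.1, Cell Ranger 3.0 and the mm10 build were used, and no gene annotation release is named there. All 31053 genes were read. Doublets were scored with scrublet (scanpy 1.11.5) at an expected 0.8% per 1000 barcodes, marking 143 of 2795 barcodes in FMTg and 150 of 2983 in Tg, and were kept in the main values.

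UMIs were summed per cell set and library. A ratio of FMTg over Tg is a ratio of CPM with an exact conditional binomial interval, given for genes with at least 20 UMIs over both libraries, and called at 1.5-fold; a sum of 0 was set to 3 counts over the set. Cells are not replicates, so no p-value is given for FMTg against Tg. Cell sets were compared with edgeR 4.0.16 (R 4.3.3) on 6 sums with the library as a block and Benjamini-Hochberg adjustment, with DESeq2 1.42.0 as an alternative. On simulated data over 11247 genes, edgeR recovered 42% of 2-fold and 87% of 4-fold changes against Trdc-positive cells, and 17% and 66% against Cd8b1-positive cells. The simulation used a fixed dispersion and, outside the altered genes, the same mean in every set and library. It held no library effect, so these rates do not give the recovery in the real data.

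Named genes were, besides the selection genes, Mdm2, Trp53, Cdkn1a, Il2rb and Klrd1, up to 4 genes of most UMIs and 4 of largest ratio per list, and the 10 highest and 10 lowest of each comparison; genes outside this rule were chosen after their values were seen. The members and lists were chosen with earlier results of these data known. Alternatives covered the mitochondrial, UMI and gene limits, doublets, thinning to 1000 UMIs, scaling, the block and receptor genes; 3 were added after seeing the data.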

Additional observations from a re-analysis of the deposited data

Results flagged for a closer look

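In 2 transcription factor genes the ratio of FMTg over Tg had opposite directions in the selected cells and in the Trdc-positive cells of the same libraries, and this difference was not tested. Klf3 had 60 UMIs in FMTg and 48 in Tg in the selected cells, a log2 ratio of 1.002, against -0.89 in the Trdc-positive cells. Klf4 had 200 UMIs in FMTg, 77 of them in 1 cell, and 152 in Tg, a log2 ratio of 1.08, against -0.79 in the Trdc-positive cells. Without the cells of at least 2% enterocyte UMIs the log2 ratios in the selected cells were -0.068 for Klf3 and -0.10 for Klf4. The values of the Trdc-positive cells were taken with such cells kept.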

How the results depend on the processing

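With 1 library per genotype, no difference between FMTg and Tg could be set against a spread between mice, and intervals cover counting error only. No paired analysis was possible because each genotype has 1 library; the block in the cell-set test is the library. Over the alternatives the p53 target median lay between 0.29 and 0.86 and the heat shock median between -0.88 and -0.40. Of the list medians 308 kept their size within the spread allowed and 31 moved.

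The share of selected cells was 0.590% in FMTg and 1.83% in Tg when all gamma constants were barred. It was 8.72% and 10.4% without Epcam-positive selected cells, and 13.5% and 19.96% without Tcrg-C1. In these settings the total remained all CD3-positive barcodes. At a 10% mitochondrial limit the share was 36.2% in Tg. The interferon median was -0.45 at a 10% mitochondrial limit, -0.19 without the cells of at least 2% enterocyte UMIs, -0.24 without Epcam-positive cells and 0.60 with gamma constants barred. That last rule left 9 cells in FMTg and 28 in Tg, with 596 genes lower in FMTg, medians of 0.86 for granules, 0.79 for killer receptors and -0.40 for heat shock, and log2 ratios of -3.48 for Apoa4, -0.55 for Cdkn1a, 0.39 for Gzmb, 0.16 for Hsp90aa1, 0.086 for Hsp90ab1, -1.43 for Klf4 and -0.29 for Rps27l. At a 10% mitochondrial limit log2 ratios were -0.66 for 2010109I03Rik, -0.27 for Apoa4, 0.29 for Cox7a1 and -0.16 for Klf4. Without the cells of at least 2% enterocyte UMIs they were -0.11 for Apoa4, -0.47 for Ifit1bl1, -0.068 for Klf3, -0.10 for Klf4 and -0.41 for Oasl2, and without Epcam-positive cells -0.20 for Apoa4, -0.049 for Klf4 and 0.12 for Mcm5. With a gene minimum of 50 UMIs, 337 genes were higher and 498 lower in FMTg.

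Against Trdc-positive cells edgeR called 41 genes higher and 130 lower at a 10% mitochondrial limit, 0 and 2 at 50%, 10 and 42 with doublets removed, 63 and 113 without the cells of at least 2% enterocyte UMIs, 102 and 63 without Epcam-positive cells, 1 and 4 without Tcrg-C1, 19 and 32 thinned, 0 and 0 without the library block, and 22 and 53 with a gene minimum of 1. Against Cd8b1-positive cells it called 123 higher and 97 lower at a 10% mitochondrial limit, 42 and 30 at 50%, 132 and 92 with doublets removed, 267 and 228 without the cells of at least 2% enterocyte UMIs, 196 and 146 without Epcam-positive cells, 30 and 27 without the library block, and 223 and 116 with a gene minimum of 1. The log2 ratio of Sst against Trdc-positive cells was 1.18 at a 10% mitochondrial limit, 0.37 at a minimum of 2000 UMIs, 0.34 without the cells of at least 2% enterocyte UMIs and 0.34 without Epcam-positive cells. The cause of these changes was not tested.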
